A study of Homo sapiens with 2 samples.

Results

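The miR-26 family was examined in small RNA libraries of hCMEC/D3, a line of endothelial cells from human brain microvessels with which the blood-brain barrier is modelled in culture. The members were taken by name, as every table row whose precursor (hairpin) is hsa-mir-26a-1, hsa-mir-26a-2 or hsa-mir-26b, which gave 6 of 2363 rows and 5 of 2042 mature miRNA names. All samples belong to 1 group: 2 libraries of the same line, labelled replicate 2 and replicate 8, with no treatment, genotype or second condition named. hCMEC/D3 is an immortalised clonal line, so the libraries describe that line and not primary brain endothelium. The labels do not say whether the replicates came from separate cultures. The tests between them hold counting error only and do not allow for spread between libraries, so their results concern these samples only.

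MicroRNAs are short RNAs cut from a hairpin. One arm of the hairpin, the guide, is loaded into Argonaute and represses mRNAs that pair with its seed (bases 2 to 8), while the other arm, the passenger, is mostly degraded. The miR-26 hairpins lie in introns of the CTDSP genes, which encode small phosphatases of the RNA polymerase II tail. miR-26 guides are known as repressors of EZH2, the histone methyltransferase of Polycomb complex PRC2, and of the G1 kinase gene CDK6. In endothelial cells miR-26a is also known to target SMAD1, a transducer of BMP signals. These statements are background, since no mRNA was measured in these libraries.

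The mature sequences show what makes these miRNAs a family and what separates them. They are from RefSeq (GRCh38.p14 table), written 5′ to 3′ with the seed in capitals.
miR-26a-5p: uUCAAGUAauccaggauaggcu
miR-26b-5p: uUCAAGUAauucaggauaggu
miR-26a-1-3p: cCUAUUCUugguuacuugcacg
miR-26a-2-3p: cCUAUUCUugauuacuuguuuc
miR-26b-3p: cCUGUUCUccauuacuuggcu
The 5p arms share the seed UCAAGUA. Counted from the 5′ end of miR-26a-5p, miR-26b-5p differs over the 21 shared positions by C11U and C21U, and it is 1 base shorter. Both miR-26a hairpins give the same 5p sequence, which by itself does not tell the loci apart, whereas their 3p arms differ by 5 substitutions (G11A, C19U, A20U, C21U and G22C, from miR-26a-1-3p to miR-26a-2-3p) and can be told apart. The 3p arms of miR-26a share the seed CUAUUCU with each other and with no other RefSeq mature miRNA, and miR-26b-3p has its own seed, CUGUUCU.

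The seed UCAAGUA is carried by 2 further mature miRNAs among the 1716 table names (84.0%) that match a RefSeq sequence by name.
miR-1297: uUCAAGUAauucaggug
miR-4465: cUCAAGUAgucugaccagggga
Each library listed both at 0 counts. A count of 0 allows a level of up to 1.10 CPM (counts per 1000000 counts of the library), which is 3 counts at this depth. Over its 17 bases miR-1297 differs from miR-26b-5p only by A16U and U17G, counted from the 5′ end of miR-26b-5p. Among the matched names, miR-26a-5p and miR-26b-5p were therefore the ones with counts for this seed.

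The hairpins are given next because they place both arms, here in capitals, in their precursor.
mir-26a-1: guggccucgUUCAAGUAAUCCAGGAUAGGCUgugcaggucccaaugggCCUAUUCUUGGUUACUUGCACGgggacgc
mir-26a-2: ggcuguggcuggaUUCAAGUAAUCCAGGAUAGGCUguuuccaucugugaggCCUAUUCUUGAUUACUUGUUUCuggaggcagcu
mir-26b: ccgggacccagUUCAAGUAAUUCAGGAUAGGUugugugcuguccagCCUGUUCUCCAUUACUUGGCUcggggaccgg
In global alignments mir-26a-1 and mir-26a-2 were identical in 70.5% of aligned columns, mir-26a-1 and mir-26b in 69.9%, and mir-26a-2 and mir-26b in 64.3%. The loops between the arms were 17, 16 and 14 bases long. The computed minimum free energies were similar, at -37.3, -41.3 and -40.2 kcal per mol in the same order, and 18 of 22, 17 of 22 and 17 of 21 bases of the 5p arm paired with the 3p arm.

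On GRCh37 (hg19), the build named in the submitters' processing notes, MIR26A1 lies on chromosome 3 at 38010895 to 38010971 (plus strand), MIR26A2 on chromosome 12 at 58218392 to 58218475 (minus strand) and MIR26B on chromosome 2 at 219267369 to 219267445 (plus strand). The genome sequence at each position was identical to the RefSeq hairpin. Each hairpin lies on the sense strand of its host: MIR26A1 in CTDSPL, MIR26A2 in CTDSP2 and MIR26B in CTDSP1. None of the 6 CTDSPL, 6 CTDSP2 and 15 CTDSP1 transcripts that span a hairpin has an exon there, so all members are intronic.

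In the MANE Select transcripts (the reference transcript of each gene) the hairpins occupy introns with matching borders. In all hosts the intron begins after an exon of 57 bases and ends at an exon of 93 bases. It is intron 5 of CTDSPL, intron 5 of CTDSP2 and intron 4 of CTDSP1. The introns differ in length, with 3524 bases in CTDSPL, 2026 in CTDSP2 and 629 in CTDSP1. The hairpin starts 107524 bases from the transcript start in CTDSPL, 22037 in CTDSP2 and 2778 in CTDSP1.

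**Figure D1:**
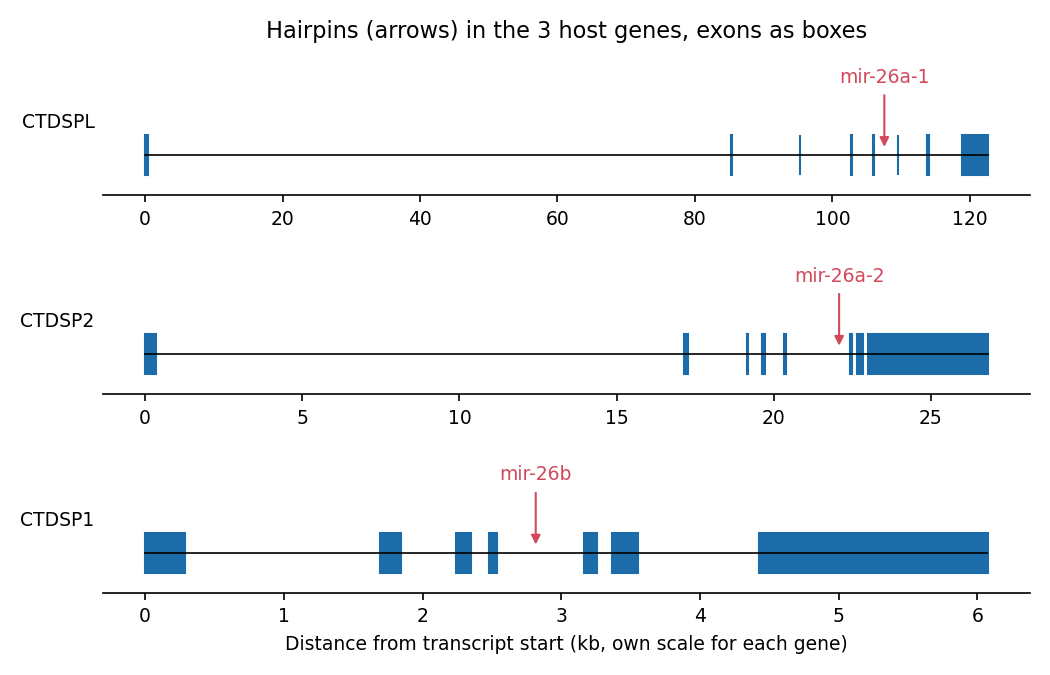
Map of the MANE Select transcripts of CTDSPL, CTDSP2 and CTDSP1, drawn from the transcript start (x axis, kb, each gene on its own scale), with exons as boxes and the hairpin as an arrow. In each gene the hairpin sits in the intron between an exon of 57 bases and one of 93 bases.

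The family was dominated by miR-26a-5p, at rank 14 in the mean profile of these cells, while miR-26b-5p had 40.2 times fewer counts and the 3p arms were lower still. The table held 49360 counts of miR-26a-5p in replicate 2 and 52194 in replicate 8. Its level was 18637 ± 705 CPM (SD, n = 2), which placed it at rank 16 in replicate 2 and rank 14 in replicate 8. The guide miR-26b-5p had 1273 and 1251 counts, a level of 463 ± 6.48 CPM (SD, n = 2), at ranks 123 and 116.

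The 3p arms were sparse. From hsa-mir-26b, the passenger miR-26b-3p was counted 30 times in replicate 2 and 41 times in replicate 8 (13.0 ± 2.83 CPM, SD, n = 2). That of hsa-mir-26a-2, miR-26a-2-3p, had 6 and 18 counts (4.40 ± 3.11 CPM). That of hsa-mir-26a-1, miR-26a-1-3p, had 4 and 11 counts (2.75 ± 1.81 CPM), so in replicate 2 it was within 1 count of the limit of 3. The order miR-26b-3p, miR-26a-2-3p, miR-26a-1-3p was the same in both libraries and runs against that of the guides, where miR-26a is the higher. Of all 3p counts of the family, miR-26b-3p held 30 of 40 in replicate 2 (75.0%, exact interval 58.8 to 87.3) and 41 of 70 in replicate 8 (58.6%, 46.2 to 70.2). The difference between the last 2 passengers was within counting error: miR-26a-2-3p held 6 of 10 miR-26a 3p counts in replicate 2 (60.0%, exact 95% interval 26.2 to 87.8) and 18 of 29 in replicate 8 (62.1%, 42.3 to 79.3). These arms differ in sequence between the CTDSPL and CTDSP2 loci, and a difference between their counts was not detectable at this depth.

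**Figure D2:**
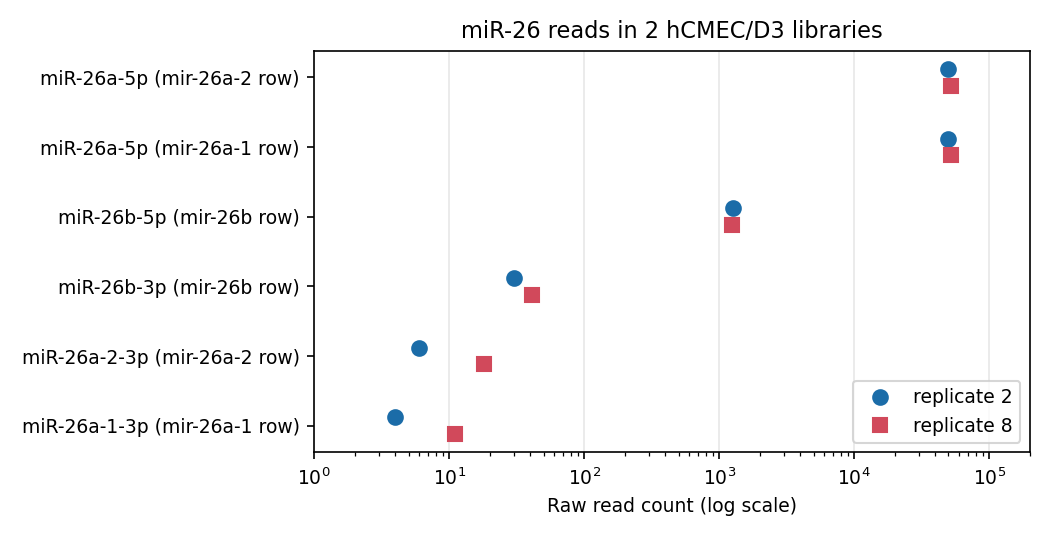
Raw read counts (x axis, log scale) of the 6 rows of the family in replicate 2 (circles) and replicate 8 (squares). Both rows of miR-26a-5p lie at 49360 counts or more, miR-26b-5p at 1273 and 1251, and the 3p arms between 4 and 41.

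miR-26a-5p has a row for each of its hairpins, and these rows held nearly the same counts. In replicate 2 both rows held 49360 counts. In replicate 8 the mir-26a-1 row held 52165 counts and the mir-26a-2 row 52194, so 29 counts (0.056% of the larger row) were listed for mir-26a-2 alone. Such near-equal rows were usual: of 48 mature names with several rows and at least 100 summed counts in the largest, 18 had identical rows in both libraries, and in 35 the smallest row held at least 99% of the largest. The larger row was therefore used once. Summing both rows instead would give 31915 CPM for miR-26a-5p.

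With each mature name counted once, the family held 50673 of 2721287 counts in replicate 2 and 53515 of 2727675 in replicate 8. The share of all counts was 1.86% (95% Wilson interval 1.85 to 1.88) and, in the second of these libraries, 1.96% (1.95 to 1.98), a mean of 1.91% ± 0.071 (SD, n = 2). Within the family miR-26a-5p took 97.4% of counts in replicate 2 and 97.5% in replicate 8, and miR-26b-5p took 2.51% and 2.34%. All 3p arms together made up 0.079% and 0.13%.

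**Figure D3:**
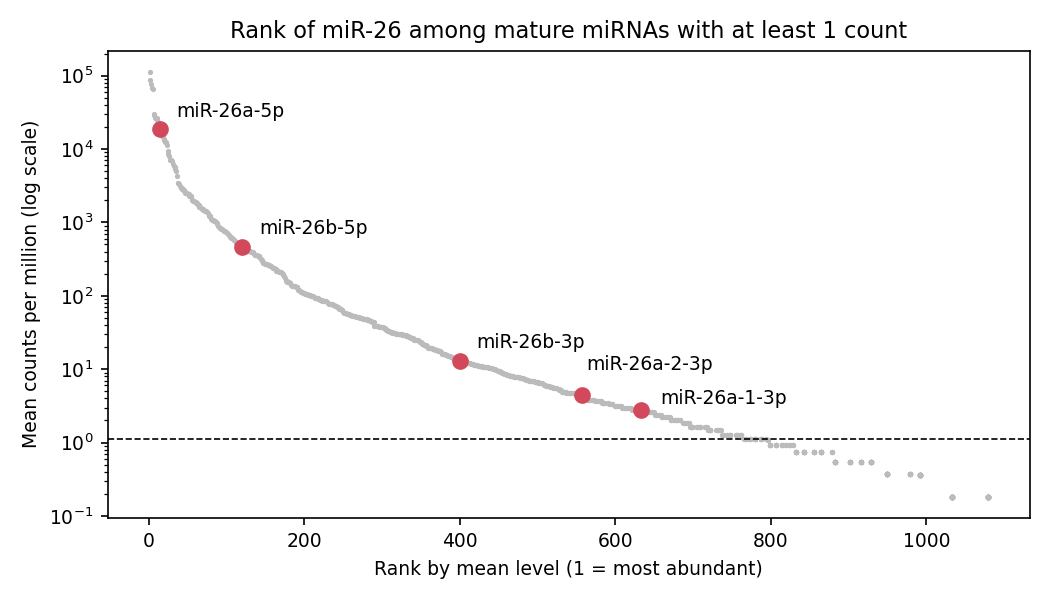
Mean CPM (y axis, log scale) against rank for the 1134 mature miRNAs with at least 1 count (grey), with the 5 miR-26 names in red and the limit of 3 counts as a dashed line. miR-26a-5p is at rank 14 of the mean profile, miR-26b-5p at 120, and the 3p arms at 400, 557 and 633.

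The ratio of the guides does not depend on library scaling. There were 38.8 counts of miR-26a-5p for each count of miR-26b-5p in replicate 2 (95% interval 36.7 to 41.0) and 41.7 in replicate 8 (39.4 to 44.1), a mean of 40.2 ± 2.08 (SD, n = 2). The difference between the libraries was not past the threshold (two-sided Fisher's exact test on the counts, p = 0.070). The ratio compares reads, and ligation and PCR can favour one sequence over another, so it is not a ratio of molecules. The miR-26b-5p counts amounted to 2.58% of the miR-26a-5p counts in replicate 2 and 2.40% in replicate 8. How reads with a mismatch were assigned is not given in the sources used here, and the part of misread miR-26a-5p in the miR-26b-5p count was not tested.

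Each hairpin gave almost only its 5p arm, and the bias was stronger for the miR-26a hairpins than for mir-26b. For mir-26b replicate 2 had 97.7% of both arms' counts on the 5p arm (95% Wilson interval 96.7 to 98.4), and replicate 8 had 96.8% (95.7 to 97.7). For mir-26a-1 it held 99.992% (99.979 to 99.997) and 99.979% (99.962 to 99.988), and for mir-26a-2 it held 99.988% (99.973 to 99.994) and 99.966% (99.945 to 99.978). The intervals of mir-26b and of either miR-26a hairpin did not overlap in either library. The miR-26a hairpins share 1 mature 5p sequence and had nearly equal 5p counts, so counts listed at both would raise both shares: with these counts split equally the mean 5p shares were 99.971% for mir-26a-1 and 99.953% for mir-26a-2, still above mir-26b.

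Arm shares were set against all hairpins with both a 5p and a 3p name whose arms summed to 50 or more counts in every library. Of these 212 hairpins, 114 had the 5p arm as the larger arm in both libraries, and the median share of the minor arm was 3.51%. The minor arm of mir-26b, at a mean of 2.74%, was below this median, and 100 hairpins (47.2%) had a lower minor share. The minor shares of mir-26a-1 and mir-26a-2 were lower than those of most hairpins, with 24 (11.3%) and 26 (12.3%) below them. These places use the full miR-26a-5p count of each row, and they were not recomputed with that count split over its hairpins. Hairpins of names without an arm, such as miR-152, are left out, and hairpins with the same counts, such as mir-9-1 and mir-9-2, each count. Hairpins with few counts are among those with a share of 0, so these places are descriptions.

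All passengers were listed higher in replicate 8 as a share of their hairpin, but no member passed the test. The 3p share was 2.60 times as high in replicate 8 for mir-26a-1, 2.84 times for mir-26a-2 and 1.38 times for mir-26b. By Fisher's exact test, adjusted over all 212 hairpins (Benjamini-Hochberg), the adjusted p was 0.36, 0.11 and 0.46, respectively. Of all hairpins tested, 40 (18.9%) passed. Among the 144 hairpins whose minor arm held under 10% in both libraries, the minor share was higher in replicate 8 in 56, lower in 65 and equal in 23.

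**Figure D4:**
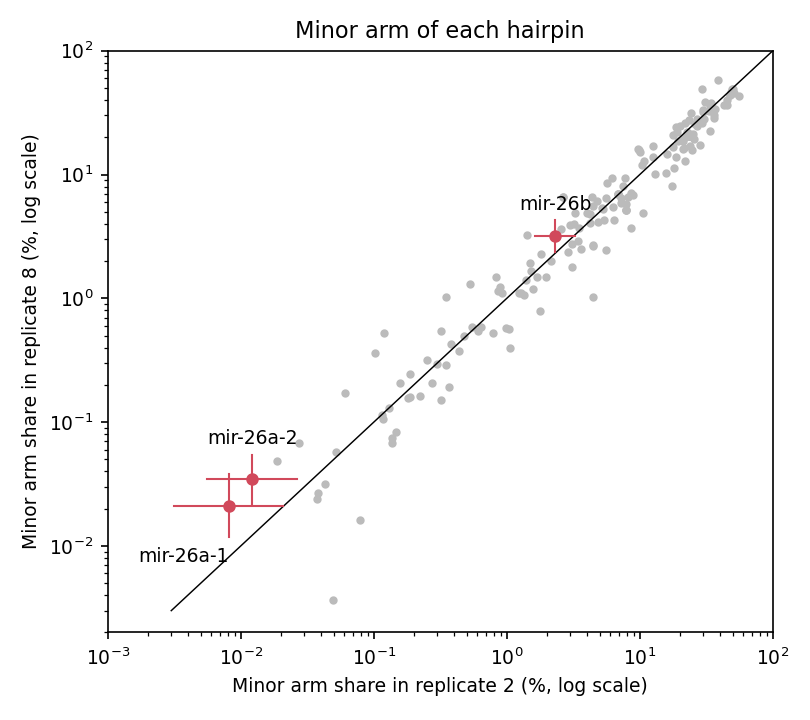
Share of the minor arm (%) of each hairpin in replicate 2 (x axis, log scale) and replicate 8 (y axis, log scale), for the 175 of 212 hairpins with a share above 0 in both, and the line of equal shares. The miR-26 hairpins are red with 95% Wilson intervals. mir-26a-1 and mir-26a-2 lie near the low end, and mir-26b lies at 2.30% and 3.17%.

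Between the libraries 1 of the 5 members differed beyond counting error under total-count scaling, by a small amount. With total-count scaling, miR-26a-5p was 1.05-fold higher in replicate 8, a log2 ratio of 0.08 (exact 95% interval 0.06 to 0.09, exact binomial test with Benjamini-Hochberg adjustment, adjusted p = 2.1e-16). For miR-26b-5p the log2 ratio was -0.03 (-0.14 to 0.09, adjusted p = 0.77). Of all 695 miRNAs with at least 10 summed counts, 238 (34.2%) passed the same test, 75 (10.8%) higher and 163 (23.5%) lower in replicate 8, so 1 of 5 is no more than that share. The split was 111 higher against 116 lower under trimmed mean (TMM) library sizes and 111 against 113 under DESeq2 size factors.

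With total-count scaling the differences of both guides were below the median of other well-counted miRNAs. For the 367 miRNAs that reached 100 summed counts, the absolute log2 ratio had a median of 0.21, and 62 (16.9%) had a smaller one than miR-26a-5p and 21 (5.72%) a smaller one than miR-26b-5p. Many of the 367 had fewer counts than the guides and so a larger counting error, and these places were not corrected for that. Scaling changed the sign for miR-26b-5p, whose log2 ratio was 0.07 with TMM sizes (exact binomial adjusted p = 0.40) and 0.07 with DESeq2 size factors (adjusted p = 0.37). miR-26a-5p stayed higher in replicate 8, with log2 ratios of 0.18 under both scalings. Its place among the 367 moved: 142 (38.7%) had a smaller absolute log2 ratio under TMM, where the median was 0.24, and 144 (39.2%) under DESeq2 size factors, where it was 0.25. For miR-26b-5p the corresponding counts were 65 (17.7%) and 75 (20.4%).

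The passengers had larger ratios with wide intervals. The log2 ratio was 1.35 for miR-26a-1-3p (-0.30 to 3.56, exact binomial adjusted p = 0.24), 1.51 for miR-26a-2-3p (0.19 to 3.20, adjusted p = 0.062) and 0.44 for miR-26b-3p (-0.27 to 1.18, adjusted p = 0.40). The call for miR-26a-2-3p depended on scaling: its exact binomial adjusted p was 0.040 under TMM scaling and 0.041 under that of DESeq2. It rests on 6 and 18 counts.

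**Figure D5:**
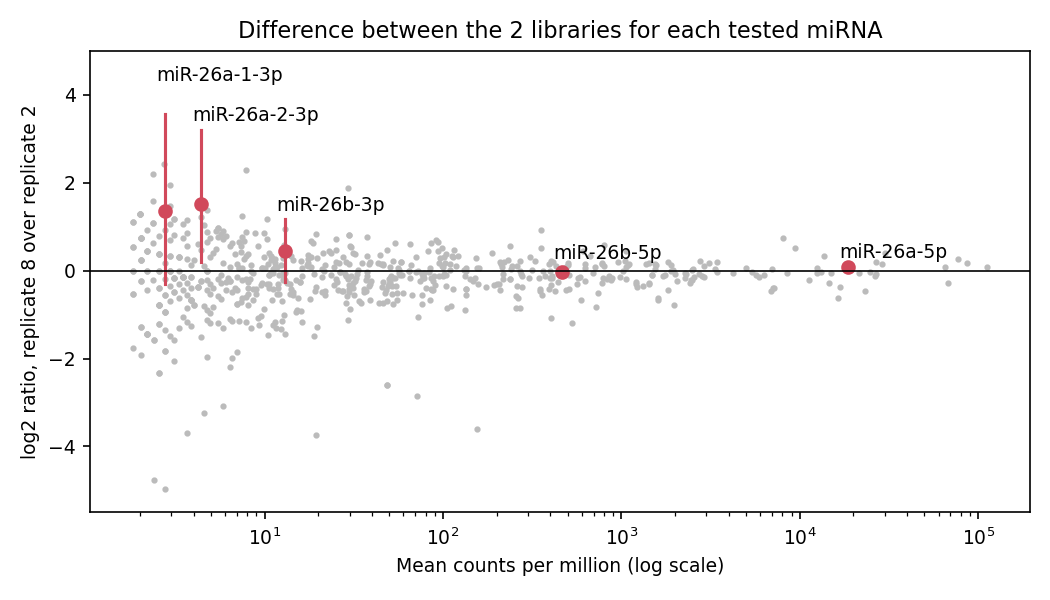
Log2 ratio of replicate 8 over replicate 2 (y axis) against mean CPM (x axis, log scale) for the 695 tested miRNAs (grey), with the miR-26 names in red and their exact 95% intervals. miR-26a-5p and miR-26b-5p lie at 0.08 and -0.03, and the intervals of the 3p arms are wide.

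The miRNAs most like each guide were named by the smallest distance in log2(CPM + 1) over the 2 libraries. For miR-26a-5p these were miR-181a-5p (distance 0.31, 21508 ± 574 CPM), miR-191-5p (0.39, 16876 ± 3126 CPM), miR-92a-3p (0.46, 14950 ± 462 CPM), miR-320a (0.56, 23081 ± 5304 CPM) and miR-423-5p (0.57, 14581 ± 2045 CPM). With total-count scaling the log2 ratios of all of them were negative, from -0.47 for miR-320a to -0.05 for miR-181a-5p, against 0.08 for miR-26a-5p. TMM and DESeq2 sizes raise every log2 ratio alike, that of miR-26a-5p to 0.18. The signs of the smaller ratios, such as that of miR-181a-5p, therefore depend on scaling. Within 1 SD the level of miR-26a-5p overlapped those of miR-191-5p and miR-320a, and not those of the other three. For miR-26b-5p the nearest were miR-24-2-5p (distance 0.013, 465 ± 10.1 CPM), miR-502-3p (0.085, 448 ± 21.8 CPM), miR-584-5p (0.14, 491 ± 20.7 CPM), miR-409-3p (0.18, 429 ± 21.9 CPM) and miR-125a-3p (0.19, 507 ± 22.4 CPM). Within 1 SD the level of miR-26b-5p overlapped those of miR-24-2-5p and miR-502-3p. With 2 libraries these distances mostly reflect the level.

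The family of miR-103 and miR-107 is built like miR-26, with a pair of hairpins for one mature sequence and another hairpin for its paralogue, all in introns of PANK genes. Its abundant guide miR-103a-3p had 34783 and 33662 counts (12561 ± 312 CPM) and miR-107 had 2554 and 2275 (886 ± 73.9 CPM), a ratio of 13.6 in replicate 2 and 14.8 in replicate 8. The corresponding miR-26 ratios, 38.8 and 41.7, were higher in both libraries, and with 2 libraries this was not tested. In the family of miR-148 and miR-152, miR-152 had 2785 and 2793 counts and miR-148b-3p 2110 and 2274, a ratio of 1.32 and 1.23. The remaining member, miR-148a-3p, had 342 and 47 counts, and the ratio of miR-152 to it was 8.14 in replicate 2 and 59.4 in replicate 8.

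miRNAs in introns of other protein-coding genes were read as a wider set. Its 34 listed hairpins gave 30 mature names, 25 of them with at least 10 counts summed over both libraries. Only miR-126-3p, the endothelial miRNA in EGFL7, at 112226 ± 4003 CPM and miR-151a-3p in PTK2 at 26663 ± 1134 CPM were more abundant than miR-26a-5p, and 16 were above miR-26b-5p. The third was miR-103a-3p, and miR-208a, miR-208b and miR-153 had 0 counts. Of the 25 tested, 15 (60%) passed, 4 higher and 11 lower in replicate 8. Beside this, 34.2% of all tested miRNAs passed, 10.8% higher and 23.5% lower. When only the 367 miRNAs with at least 100 summed counts were tested, 212 passed, 76 higher and 136 lower. The median log2 ratio was -0.07 against -0.11 over all tested. This split turned with scaling: under both TMM and DESeq2 sizes 10 (40%) passed, 9 higher and 1 lower, with median log2 ratios of 0.03. Over all 695 miRNAs 111 were then higher and 116 (TMM) or 113 (DESeq2) lower. No direction is therefore given for this set.

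Among 15 miRNAs known as repressors of CDK6 or EZH2, as miR-26a is, miR-26a-5p was exceeded only by let-7b-5p, at 24621 ± 504 CPM. let-7a-5p, a further member of the let-7 family, was at 13655 ± 2228 CPM and let-7e-5p at 4983 ± 163 CPM. The miRNA miR-101-3p, a repressor of EZH2, was at 277 ± 49.8 CPM and miR-34a-5p, a p53 target, at 53.6 ± 16.5 CPM. The lowest were miR-124-3p with 3 and 1 counts, miR-449a with 6 and 4, and miR-214-3p with 23 and 2. Of the 14 tested, 9 (64.3%) passed, 4 higher and 5 lower in replicate 8, beside 34.2% of all tested miRNAs. Of the 367 miRNAs with at least 100 summed counts, tested alone, 212 passed, so the share that passed was larger among well-counted miRNAs. The median log2 ratio was -0.09, against -0.11 over all tested. Under TMM and under DESeq2 sizes 8 (57.1%) passed, 5 higher and 3 lower, beside 227 and 224 of all 695. The medians were then 0.0085 and 0.013, against -0.015 and -0.011 over all tested. The share of this set was not tested against that of all miRNAs.

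The seed match of miR-26 was located in the 3′ UTRs of its known targets to show what the measured guides can pair with. The motif TACTTGA, complementary to bases 2 to 8, was searched on the transcript strand of MANE Select 3′ UTRs in the GENCODE transcripts. It occurred in 2202 of 18642 UTRs (11.8%). Up to 30 bases around each match are shown, with the motif in capitals.
EZH2: ttgaataaagaaTACTTGAacttgtc
CDK6 first: ccgttgtaccctTACTTGAaagtttctaat
CDK6 second: tgtatttcttcaTACTTGAaattcattctg
SMAD1 first: gagccttgcatgTACTTGAaggatggatga
SMAD1 second: gagccttgataaTACTTGAcctctgtgacc
EZH2 held 1 match at position 250 of a UTR of 263 bases, a length at which 1.43% of UTRs hold one (lengths within 20%). CDK6 held 2 in 10219 bases, where 53.5% of UTRs hold at least 1, and SMAD1 held 2 in 1242 bases, where 8.23% do. The UTRs of CTDSPL, CTDSP2 and CTDSP1 did not hold these letters, at lengths where 23.7%, 23.5% and 9.89% of UTRs do. A match is a description of sequence, and the levels of these mRNAs were not analysed here.

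The cell line label was checked against marker miRNAs. The endothelial miR-126-3p was the most abundant miRNA in both libraries. The 3 listed blood markers, miR-144-3p, miR-142-3p and miR-223-3p, each had 0 counts. Other miRNAs known from blood cells, looked up outside that list with their values known, did have counts: miR-486-5p had 841 and 566, miR-150-5p had 622 and 503, and miR-451a had 43 and 19. Of the other cell types, neuronal miR-124-3p, the only neuronal marker listed, had at most 3 counts. Brain-enriched miRNAs outside the list, also looked up with their values known, did have counts. In replicates 2 and 8 miR-128 had 7313 and 6632, miR-7-5p 6909 and 8087, miR-9-5p 117 and 92, and miR-218-5p 39 and 27. The mural markers miR-143-3p and miR-145-5p together had 2271 counts in replicate 2 and 1071 in replicate 8, and 4 epithelial markers had 146 and 85, with miR-141-3p at 0. The mural and epithelial sums and these blood miRNAs were lower in replicate 8, in the opposite direction to miR-26a-5p, and their part in its ratio was not tested.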

How the data were processed

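The deposited table gives raw counts per mature miRNA and hairpin for each library and RPM values by the authors, per the file headers. The submitters' processing notes name CASAVA 1.9, FastQC, cutadapt, Bowtie 0.12.7 and hg19; the counter and miRBase release are not given in the sources used here. The deposited RPM equal the counts divided by 3180045 (replicate 2) and 3205752 (replicate 8), and were not tested.

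Where a mature name had several rows, its row of highest summed count was kept, leaving 2721287 and 2727675 counts. With 1 group, no contrast for edgeR's quasi-likelihood test exists. Libraries were compared by exact binomial tests (at least 10 summed counts) and Fisher's exact tests on arms (at least 50 counts per library), with Benjamini-Hochberg adjustment at 0.05 (scipy 1.17.1). Log2 ratios had 0.5 counts added. Scaling alternatives used edgeR 4.0.16 and DESeq2 1.42.0, and folding used RNAfold 2.7.2. The tests were tested on simulated data with counting error only, so how they behave with spread between libraries was not tested. Without molecular identifiers, intervals cover counting error only.

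Besides the members, a rule named seed relatives, the 5 nearest miRNAs to each guide, the 3 highest and 3 lowest of each list, and the comparison families. The row let-7c was read for let-7c-5p. A few further list members, among them miR-101-3p and miR-34a-5p, and the target genes were added with the values known. Members and lists were chosen with earlier results of these data known.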

Additional observations from a re-analysis of the deposited data

How the results depend on the processing

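Over 17 results, 70 values were recomputed, and 57 counted as unchanged. These kept their direction and side of the threshold or, for levels, ratios and shares without a test, stayed within 1 SD. Numbers of calls counted as unchanged within 1.5-fold of the reported number. Of the rest, 9 moved further, 2 passed the threshold that the reported value missed, and 2 changed sign. The 14 values that leave out a library had to stay within 1 SD of a mean over 2 libraries. Adding 1 count instead of 0.5 did not alter the p-values, so the side of the threshold was fixed there too. Among the 57, the miR-26a-5p log2 ratio went from 0.08 to 0.18 under both other scalings. The sign changes were those of the miR-26b-5p log2 ratio, 0.0697 with TMM and 0.0738 with DESeq2 size factors. For miR-26a-2-3p the log2 ratio was past the threshold at 1.60 with TMM and 1.61 with DESeq2 size factors. Rows summed per name gave a family share of 3.23%, 31915 CPM for miR-26a-5p, 397 CPM for miR-26b-5p and a guide ratio of 80.5. Dividing by all deposited rows gave 1.64%, 15960 CPM and 397 CPM. These shifts follow from adding both miR-26a-5p rows or from the larger denominator. Splitting miR-26a-5p over its hairpins gave 5p shares of 99.971% (mir-26a-1) and 99.953% (mir-26a-2), also by construction. Leaving out a library gave a family share of 1.86% or 1.96%, which are the values of the single libraries. The 3p arms have no value with at least 100 summed counts. No paired analysis was possible because there is 1 group. Depth limits the 3p arms, at 4 to 41 counts.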
